A study of Mus musculus with 186 samples.

Results

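Pou5f1, Sox2 and Sall4 encode transcription factors at the core of the network that keeps early embryonic cells pluripotent, and they were followed across single inner cells of mouse embryos. The 3 genes were taken by symbol from a table of 55421 genes, and all 3 were among the 11680 genes that passed a filter on low values. The cells came from embryos of CD-1 mice, an outbred strain, and were recovered by immunosurgery, in which antibody and complement destroy the outside layer. One set of embryos was used fresh, at the embryonic days E3.25, E3.75 or E4.0. The other set was put at E2.75 into KSOM, an embryo culture medium, for 16 or 24 hours. It contained either LY294002 (LY) at 10 µM, which blocks the lipid kinase PI3K, or DMSO, the vehicle, alone. This gave 7 groups, called E3.25, E3.75, E4.0, 16h DMSO, 16h LY, 24h DMSO and 24h LY, with no genetic change in any of them. Each experiment (the cells of 1 group with 1 collection date) pooled several litters, and no cell is tied here to an embryo or a litter.

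Pou5f1 encodes OCT4, a POU-family protein that binds the octamer motif and is needed for inner cells to become pluripotent. SOX2 binds DNA next to OCT4 at shared sites, and in the mouse blastocyst its protein is restricted to inner cells and then to the epiblast, the lineage that forms the embryo proper. SALL4 is a zinc finger protein that works with both, can recruit the NuRD chromatin complex, and is made in the epiblast and in the primitive endoderm, the inner lineage that lines the yolk sac.

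In the mm10 (GRCm38) annotation of GENCODE vM21, Pou5f1 (ENSMUSG00000024406.16) lies on the plus strand of chromosome 17 from 35506018 to 35510772, and its longest transcript has 5 exons and 1362 bases. Sox2 (ENSMUSG00000074637.7) lies on the plus strand of chromosome 3 from 34650405 to 34652461 and is a single exon of 2057 bases. It sits inside the long noncoding gene Sox2ot on the same strand, but 0 of 18 Sox2ot transcripts have an exon that overlaps it. Sox2ot itself was at a TPM of 1 or more in 3 of 169 cells. Sall4 (ENSMUSG00000027547.17) lies on the minus strand of chromosome 2 from 168748332 to 168767943, with 4 exons and 5073 bases in its longest transcript.

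The start regions of the most evenly and the least evenly detected of the 3 genes are shown side by side, each cut to 30 bases from RefSeq (GRCm38.p6, plus strand). The Pou5f1 piece is chr17:35505981-35506010, 51 to 22 bases before the RefSeq start, and its capitals mark a GC box (GGGCGG) and the short nuclear receptor motif AGGTCA. The Sox2 piece is chr3:34649879-34649908, 116 to 87 bases before the RefSeq start, and its capitals mark a GC box read on the other strand (CCGCCC) and part of an octamer, the motif that OCT4 binds (ATGCAAA). For Sox2 the RefSeq start lies before the GENCODE start given above, so the piece is farther from the GENCODE start.
Pou5f1: cccaggGGGCGGggccagAGGTCAaggcta
Sox2: aggccCCGCCCcctttcATGCAAAaccctc
Both strands of 32851 RefSeq start regions, each from 250 bases before to 50 bases after a start, were searched, and matches of different motifs could overlap. GGGCGG was in 35.7% of them and AGGTCA in 16.3%, and both were in the start regions of both genes. ATGCAAA was in 4.63% of all regions and in that of Sox2, and was not found in that of Pou5f1. CCAAT was in 37.4% of all regions and was in those of both genes. ACAAAG, bound by SOX proteins, was in 18.7% of all regions and in that of Sox2, and TATAAA was in 13.6% of all regions and in neither. These matches describe letters in these regions and were tested against nothing in the expression data.

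Values were available for 169 cells in 18 experiments. E3.25 held 19 cells, E3.75 held 22 and E4.0 held 14, from 2 experiments each. The cultured groups held 31 cells in 16h DMSO, 31 in 16h LY, 28 in 24h DMSO and 24 in 24h LY, from 3 experiments each, and an experiment held 3 to 18 cells. Levels are TPM (transcript abundance corrected for transcript length and scaled to a fixed total in each cell), from which the number of reads in a cell cannot be recovered. As a measure of quality, each cell held 3806 to 10220 genes at 1 TPM or above (median 6584). The mean of that number was 8084 in 16h DMSO and 6832 in 16h LY, and 6454 in 24h DMSO and 5439 in 24h LY, so it was lower in both LY groups. The labelled inner cells carried the inner lineage genes Nanog, at a TPM of 10 or more in 148 of 169 cells, and Gata6, in 112 of 169. The trophectoderm (outer layer) factor Cdx2 was at 0 in 22 of 22 cells at E3.75 and at a TPM of 10 or more in at most 2 cells of any group, whereas the keratin gene Krt8 reached that level in 18 of 19 cells at E3.25 and 29 of 31 in 16h DMSO. In what follows a mean is over the experiments of a group, of each experiment's mean log2(TPM + 1) over its cells, and p-values measure only the spread between experiments.

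Pou5f1 RNA was found in every cell. It was at a TPM of 1 or more in 169 of 169 cells (95% interval 97.8% to 100%, exact Clopper-Pearson, for counting error only) and at 10 or more in 168 of 169. Its mean log2 level over all cells was above that of 96.2% of the tested genes. It was 1 of 397 tested genes, or 3.4%, at a TPM of 1 or more in every cell.

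In the fresh embryos the Pou5f1 level was 104 to 706 TPM over the cells of E3.25, with medians of 258 and 532 TPM in the 2 experiments. At E3.75 the cells ran from 83.7 to 535 TPM, with medians of 177 and 268. At E4.0 they ran from 55.2 to 332 TPM, with medians of 179 and 93.7. All fresh cells were thus well above 10 TPM, and the lowest cells were at E4.0.

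In culture, Pou5f1 ran from 1.93 to 408 TPM over the cells of 16h DMSO, with experiment medians of 217, 120.1 and 111. In 16h LY the cells ran from 48.6 to 699 TPM, with medians of 226, 179.8 and 192. The cells of 24h DMSO lay between 89.98 and 709 TPM, with medians of 328, 209 and 259.7. The single cell under 10 TPM was in experiment 2 of 16h DMSO, and it held 35.7 TPM of Sall4 and 6.1 TPM of Sox2. In 24h LY the cells ran from 10.9 to 701 TPM, with medians of 181, 201 and 318, and the lowest cells of its 3 experiments were at 10.9, 13.5 and 35.6 TPM.

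**Figure D1:**
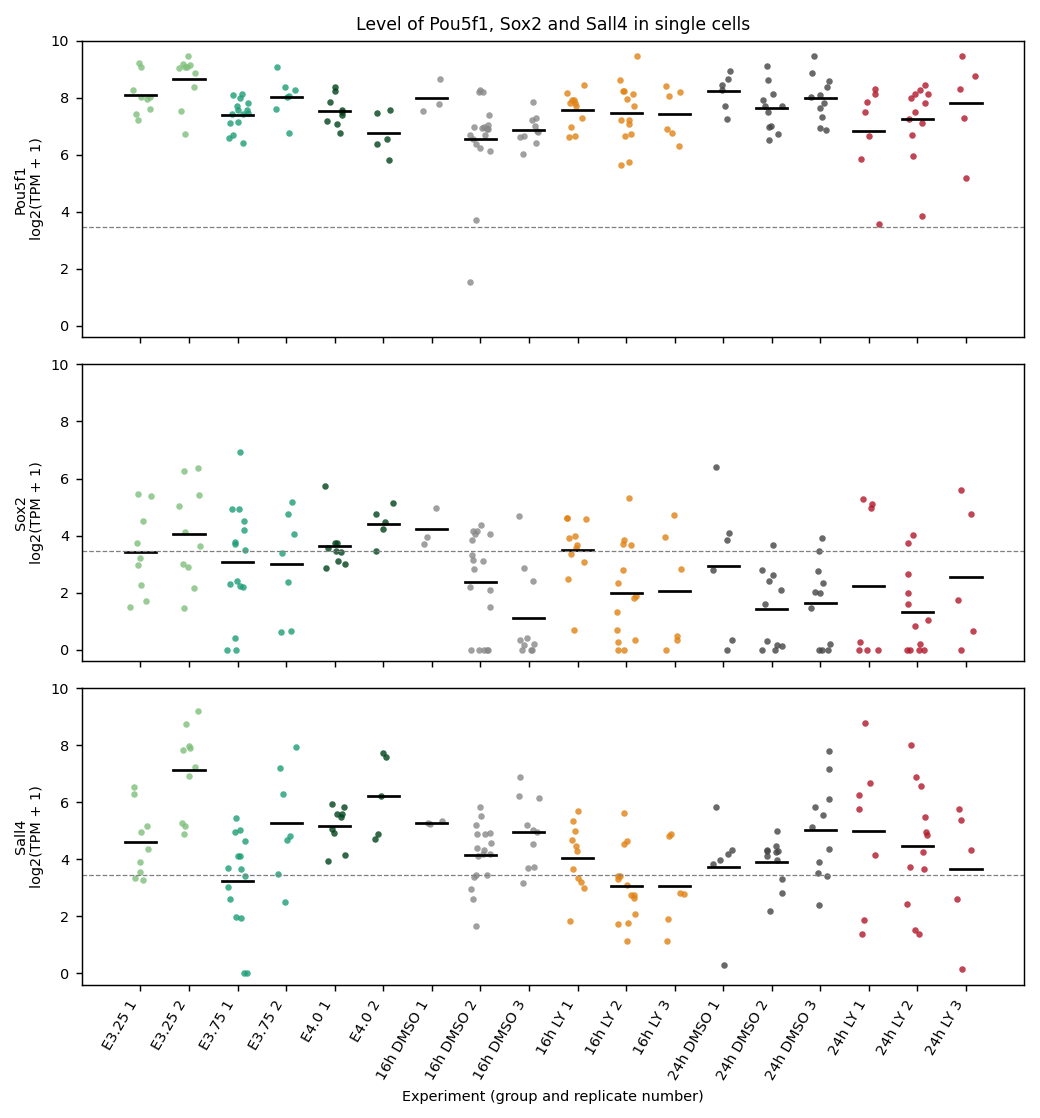
Level of Pou5f1, Sox2 and Sall4 as log2(TPM + 1), 1 point per cell, by experiment (group and replicate number), with a bar at the mean over the cells of an experiment. The dashed line is a TPM of 10. Of 169 cells, 168 lie above it for Pou5f1, 65 at or above it for Sox2 and 120 for Sall4.

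Ordered by mean log2 level, Pou5f1 was highest at E3.25 (8.37 ± 0.40, SD, n = 2 experiments), then came 24h DMSO (7.95 ± 0.30, n = 3), E3.75 (7.72 ± 0.44, n = 2) and 16h LY (7.50 ± 0.07, n = 3). It was lower in 24h LY (7.30 ± 0.48, n = 3), at E4.0 (7.15 ± 0.56, n = 2) and in 16h DMSO (7.14 ± 0.76, n = 3). Each neighbouring pair in this order overlapped in its experiment means. Among the fresh stages the mean was lower at each later stage, and the experiments of E3.25 did not overlap those of E3.75 or E4.0. With only 2 experiments a stage, 19.7% of tested genes were lower without overlap at E3.75 and 15.2% at E4.0.

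This order did not pass the test over all genes. Pou5f1 at E4.0 differed from E3.25 by -1.22 on the log2 scale (95% interval -2.56 to 0.12, limma adjusted p = 0.447). Of all tested genes 1.67% passed in that comparison, 1.4% higher and 0.265% lower at E4.0. Within sequencing runs 1 and 2 alone the difference was -1.34 and -1.38, and leaving out 1 experiment moved it between -1.62 and -0.82 (-0.94 without experiment 2 of E3.25).

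Sox2 RNA was patchy. It was at a TPM of 1 or more in 120 of 169 cells (71.01%, 95% interval 63.5% to 77.7%) and at 10 or more in 65 of 169 (38.5%, 31.1% to 46.2%). These intervals too are for counting error only and leave out the differences between experiments. Sox2 was listed at 0 in 27 cells and between 0 and 1 TPM in 22. A library that misses a molecule and a cell that makes none both give 0, and these files do not tell them apart. Genes that all cells need gave gaps of the same size in these libraries: Pgk1 (a glycolytic enzyme) was at 1 TPM or more in 124 of 169 cells and Tbp (a general transcription factor) in 97 of 169.

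The gaps in Sox2 were in E3.75 and in the cultured groups. All 19 cells at E3.25 held it at 1 TPM or more, from 1.72 to 81.5 TPM, with experiment medians of 8.33 and 13.97. At E3.75 it was in 17 of 22 cells, with a range of 0 to 120.3 TPM and medians of 10.27 and 9.47. At E4.0 it was in 14 of 14 cells, from 6.24 to 52.9 TPM, with medians of 10.05 and 21.1. The fresh groups therefore had medians near 10 TPM, and what set E3.75 apart was its cells at or near 0. The 2 of them at 0 were both of experiment 1 and sequencing run 1, and were also at 0 for Sall4. Those at 0.33 and 0.54 TPM were from run 1 too, and that at 0.59 TPM was from run 2.

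In 16h DMSO, Sox2 was at 1 TPM or more in 19 of 31 cells, with experiment medians of 14.6, 6.84 and 0.215 TPM and a highest cell of 30.2. In 16h LY it was in 22 of 31 cells, with medians of 11.7, 2.6 and 3.23 TPM and a highest cell of 39.3. Experiments of 1 group thus differed widely: in 16h DMSO all 3 cells of experiment 1 were above 10 TPM, against 1 of 10 cells in experiment 3. In 24h DMSO Sox2 was in 17 of 28 cells, with medians of 9.64, 2.06 and 3.01 TPM and a highest cell of 83.7. In 24h LY it was in 12 of 24 cells, with medians of 0.2, 0.91 and 2.31 TPM and a highest cell of 47.2. The share of cells at 10 TPM or more was lowest in 24h DMSO, at 5 of 28 cells.

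By mean log2 level Sox2 was highest at E4.0 (4.02 ± 0.56, SD, n = 2) and E3.25 (3.73 ± 0.44, n = 2), followed by E3.75 (3.04 ± 0.05, n = 2). The cultured groups came after these, with 16h DMSO at 2.57 ± 1.56, 16h LY at 2.52 ± 0.85, 24h LY at 2.04 ± 0.63 and 24h DMSO at 2.00 ± 0.80 (n = 3 each). The experiments of E3.25 and E3.75 did not overlap, which also held for 19.7% of tested genes in that direction, and all other neighbours in the order did. From E3.25 to E4.0 the Sox2 level differed by 0.29, and by 0.60 without experiment 2 of E3.25.

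Sall4 RNA was found in nearly every cell at very uneven levels. It was at a TPM of 1 or more in 165 of 169 cells (97.6%, 95% interval 94.1% to 99.4%) and at 10 or more in 120 of 169 (71.01%, 63.5% to 77.7%), again with intervals for counting error only. Its cells ran from 0 to 590.3 TPM. The 4 cells under 1 TPM were 2 at E3.75, 1 in 24h DMSO and 1 in 24h LY.

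At E3.25 the 2 experiments stood apart in Sall4. Experiment 1 ran from 8.57 to 92.2 TPM with a median of 19.5, and experiment 2 from 28.5 to 590.3 TPM with a median of 188. Differences in level from E3.25 are therefore also given without experiment 2. At E3.75 the medians were 11.8 and 27.5 TPM over a range of 0 to 247, and at E4.0 they were 43.4 and 73.2 TPM over a range of 14.5 to 213. E4.0 was the fresh stage at which all 14 cells reached 10 TPM.

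In 16h DMSO, Sall4 had experiment medians of 37.2, 18.1 and 30.9 TPM over a range of 2.2 to 118. In 16h LY the medians were 18.8, 6.66 and 5.98 TPM over a range of 1.19 to 50.99. The LY cells were lower at each of the 3 dates. In 24h DMSO the medians were 15.9, 18.2 and 33.7 TPM over a range of 0.22 to 219, and in 24h LY they were 53.8, 22.99 and 19.1 TPM over a range of 0.1 to 437. At 24 hours the highest and the lowest value were both in LY, each in a single cell. The lowest cells of the 2 arms, at 0.1 and 0.22 TPM, were both near 0. The highest cell held only 4042 genes, with 10.9 TPM of Pou5f1.

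By mean log2 level Sall4 was highest at E3.25 (5.86 ± 1.78, SD, n = 2; 4.59 in experiment 1 alone) and E4.0 (5.70 ± 0.75, n = 2). It then came to 4.79 ± 0.59 in 16h DMSO, 4.37 ± 0.67 in 24h LY, 4.26 ± 1.44 at E3.75 (n = 2), 4.22 ± 0.69 in 24h DMSO and 3.39 ± 0.57 in 16h LY (n = 3 for each cultured group). Each neighbouring pair overlapped in its experiment means. Without E3.25 experiment 2, the difference from E3.25 to E4.0 turned from -0.16 to 1.10, and that from E3.25 to 16h DMSO turned from -1.06 to 0.20.

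Set beside each other in the same cells, the 3 genes differed in the share of cells that held them at 10 TPM or more. The 2 arms of a culture date were averaged, which gave 12 dates, and the mean share of cells at 10 TPM or more was 99.8% for Pou5f1, 77.2% for Sall4 and 46.2% for Sox2. The share for Pou5f1 was above that for Sox2 by 53.6 points (SD over dates 21.5), at 12 of 12 dates. The share for Sall4 was above that for Sox2 by 31.003 points (SD 19.04), at 10 dates and equal at 2. Pou5f1 was above Sall4 by 22.6 points (SD 17.7), at 9 dates and equal at 3. These 3 differences carry no p, because the genes were chosen with their even and patchy patterns known. TPM corrects for transcript length, but reverse transcription began at the 3′ end, and a given TPM need not mean the same number of molecules for each gene.

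**Figure D2:**
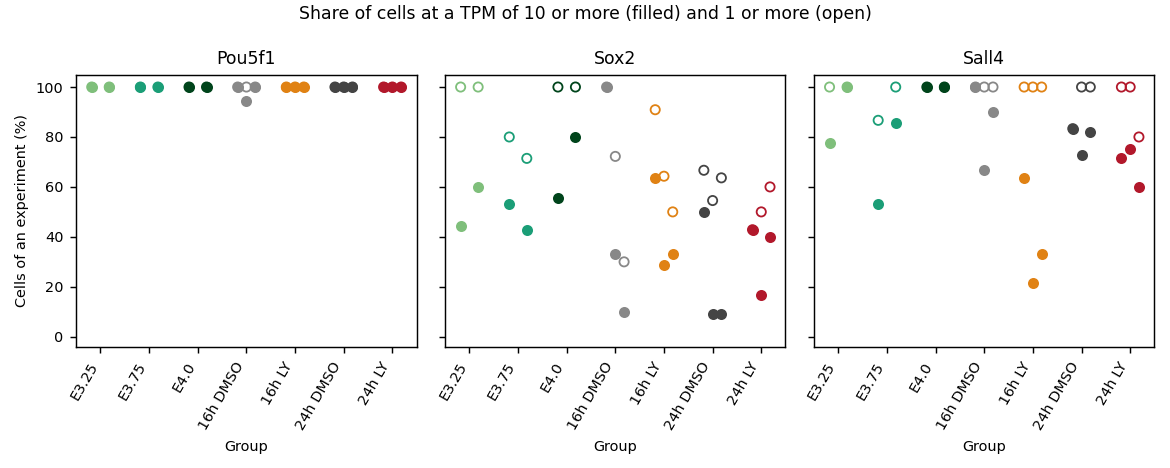
Percent of the cells of each experiment at a TPM of 10 or more (filled) and of 1 or more (open), by group, for Pou5f1, Sox2 and Sall4. Pou5f1 stays at 100% in all but 1 experiment (94.4%), while Sox2 spans 9.09% to 100% at a TPM of 10.

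The spread between cells of 1 experiment gave the same place to Pou5f1, but on the log2(TPM + 1) scale it did not separate Sall4 and Sox2. The mean SD over cells, on the log2(TPM + 1) scale, was 0.84 for Pou5f1, 1.45 for Sall4 and 1.57 for Sox2 over the 12 dates. Pou5f1 was the more even of the pair at 11 of 12 dates against Sox2 and at 11 of 12 against Sall4. Sall4 and Sox2 differed by 0.13 (SD 0.35), with the lower SD in Sall4 at 8 of 12 dates. With 0.1 in place of 1 added to the TPM, the mean SD was 1.67 for Sall4 and 2.28 for Sox2. It was then lower in Sall4 at 11 of 12 dates, so this comparison depends on how values near 0 are treated.

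Set against other genes, Pou5f1 was among the more even, and near the middle of those found in every cell. Its SD within experiments (1.005) was above that of 16.1% of all tested genes and of 38.3% of the 397 genes found in every cell. Over a list of 10 genes used by all cells, the SD ran from 0.95 for Gapdh to 2.13 for Pgk1, both glycolytic enzymes. The SD of Sall4 (1.52) was above that of 47.7% of tested genes and the SD of Sox2 (1.69) above 60.5%. Most of the variance of each gene lay between cells of 1 experiment, at 74.3% for Pou5f1, 74.3% for Sox2 and 65.98% for Sall4.

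In single cells, 52 of 169 held all 3 genes at 10 TPM or more. Another 67 held Pou5f1 and Sall4 without Sox2, 13 held Pou5f1 and Sox2 without Sall4, and 36 held Pou5f1 alone. No cell had all 3 genes under 10 TPM. The share with all 3 was 64.3% at E4.0 (9 of 14), 47.4% at E3.25 (9 of 19) and 40.9% at E3.75 (9 of 22). It was 22.6% in 16h DMSO and in 16h LY (7 of 31 each), 17.9% in 24h DMSO (5 of 28) and 25% in 24h LY (6 of 24). Cells with Pou5f1 alone were 13 of 31 in 16h LY and 4 of 31 in 16h DMSO, and there were 0 of 14 at E4.0.

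**Figure D3:**
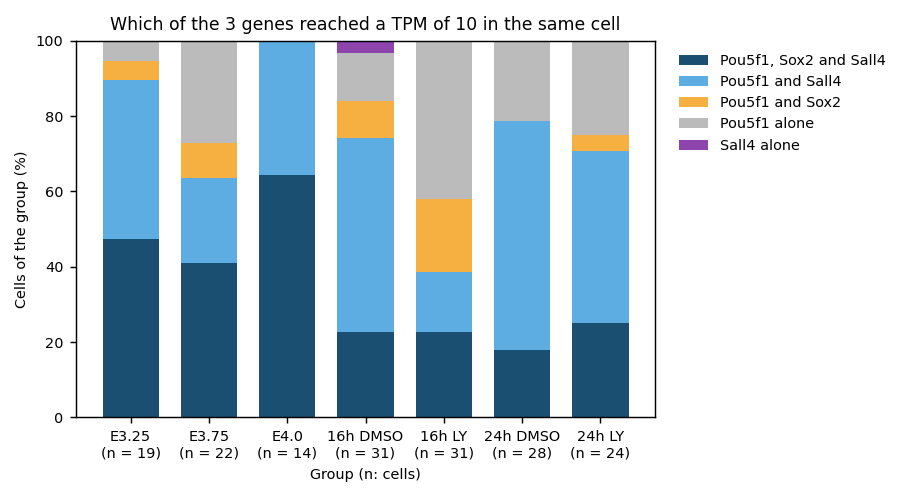
Percent of the cells of each group by which of the 3 genes were at a TPM of 10 or more, with the number of cells under each bar. All 3 genes were together in 64.3% of cells at E4.0 and in 17.9% of cells in 24h DMSO.

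With each gene centred on its experiment mean, Pearson's r over 169 cells was 0.197 for Pou5f1 and Sox2, 0.166 for Pou5f1 and Sall4 and 0.229 for Sox2 and Sall4. Within groups it was uneven. For Pou5f1 and Sall4 it ran from -0.033 in 24h LY (24 cells) to 0.551 in 24h DMSO (28 cells), with 0.476 in 16h LY (31 cells). For Sox2 and Sall4 it ran from -0.302 in 16h DMSO (31 cells) to 0.545 at E3.75 (22 cells), with 0.516 in 16h LY. For Pou5f1 and Sox2 it ran from -0.069 in 16h DMSO to 0.50 in 24h LY. The cells of an experiment share a collection and handling, and r between Sox2 and the number of genes found in the cell was 0.300. These values are descriptions. Sox2 was also set against the lineage genes in the same cells: 58 of the 65 cells with Sox2 at 10 TPM or more had Nanog (epiblast) at that level, as did 90 of the 104 without. Groups differed in this: in 24h LY Nanog was in 3 of 7 cells with Sox2 and in 15 of 17 without (r = -0.530), and at E4.0 it was in 8 of 9 and 4 of 5 (r = 0.629). The 24h LY counts pool 3 experiments that differed in both genes. Nanog was at 10 TPM or more in 2 of 7, 12 of 12 and 4 of 5 of their cells. Sox2 was at that level in 3 of 7, 2 of 12 and 2 of 5. Of all cells with Sox2 at that level, 48 of the 65 had Gata6 (primitive endoderm), as did 64 of the 104 without. Cells with Sall4 at 10 TPM or more had Nanog in 109 of 120 and Gata6 in 87 of 120, against 39 and 25 of the 49 cells without. With each gene centred, r between Sall4 and Gata6 was 0.308.

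The genes whose pattern over cells was most like each member were taken from 8929 candidate genes. For Pou5f1 these were Gm12892 (r = 0.475), Vcp (an ATPase), Rabac1, Psmd4 (a proteasome subunit) and Capzb (an actin capping protein, r = 0.446), against a median of 0.03 and a 99th percentile of 0.319 over all candidates. For Sall4 they were Hmgn1 (a nucleosome-binding protein, r = 0.506), Rnps1 (a splicing factor), Ywhae (a 14-3-3 protein), Pno1 and Hnrnpk (an RNA-binding protein, r = 0.444), against a median of 0.05. For Sox2 they were Elavl1 (an RNA-binding protein, r = 0.371), Hgh1, Cdpf1, Tbccd1 and 4930453N24Rik (r = 0.345), against a median of 0.06 and a 99th percentile of 0.281.

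Whether PI3K inhibition changed the 3 genes was asked at each culture time. By level, by share of cells or by SD over cells, no member passed the test of LY against DMSO over all genes, and 0% of the 11680 genes did. By limma at an unadjusted p under 0.05 there were 641 genes at 16 hours and 615 at 24 hours, and by permutation 578 for the share and 926 for the SD. Within sequencing runs 1 and 2 alone, 24 and 26 of all 27 level differences (3 genes, 9 comparisons) kept their sign. The 3 that turned in run 1 were all differences with LY. They were Sox2 at 24 hours, Sox2 in the difference between the effects at 24 and 16 hours, and Sall4 at 24 hours. The 1 that turned in run 2 was Sall4 in 24h DMSO against E3.75. Pou5f1 differed by 0.36 on the log2 scale at 16 hours (95% interval -0.74 to 1.45, adjusted p = 0.912) and by -0.65 at 24 hours (-1.74 to 0.45, adjusted p = 0.933). Leaving out 1 experiment gave 0.06 (without 16h DMSO experiment 2) to 0.79 (without 16h DMSO experiment 1) at 16 hours and -0.90 to -0.42 at 24 hours. Sox2 differed by -0.05 at 16 hours (-1.55 to 1.45, adjusted p = 0.997) and by 0.04 at 24 hours (-1.46 to 1.54, adjusted p = 1.0). The intervals for Sox2 allow a change of more than 1 log2 unit either way, so these data do not show that LY left it alike.

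Sall4 was the member with the largest difference at 16 hours. Its level was lower with LY (log2 difference -1.404, 95% interval -2.91 to 0.10, limma adjusted p = 0.854), and lower at 3 of 3 dates, by differences of -1.24, -1.08 and -1.90. The experiments of the 2 arms did not overlap, which also held for 8.84% of tested genes in that direction, and the median difference over all genes was -0.33. At 24 hours the difference was 0.14 (-1.36 to 1.65, adjusted p = 0.996), with 2 dates higher and 1 lower. The difference between the effects at 24 and 16 hours was 1.55 (-0.58 to 3.68, adjusted p = 1.0).

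**Figure D4:**
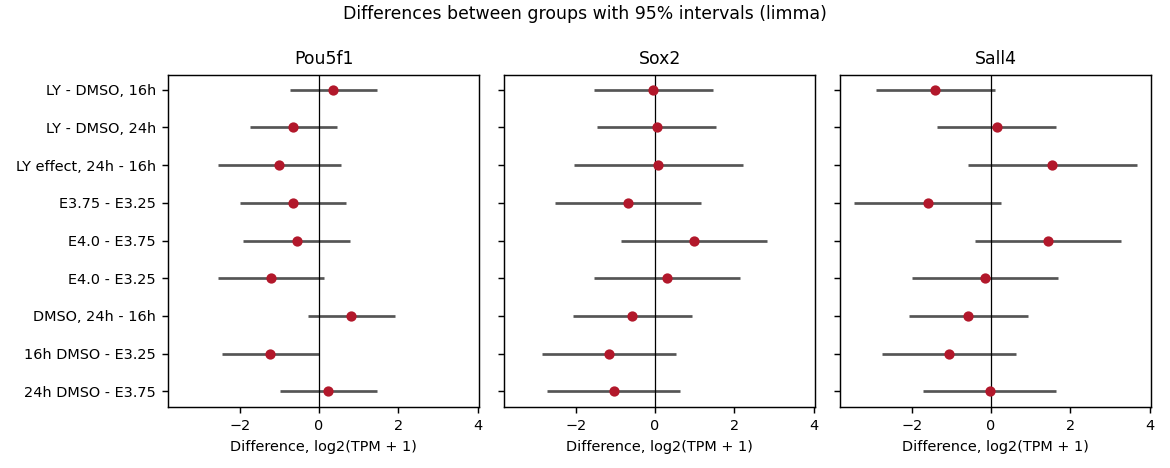
Differences in mean log2(TPM + 1) between groups (points) with 95% intervals (lines) from limma, for the 3 genes in 9 comparisons, the first group minus the second. Intervals reach past 0 for all but Pou5f1 in 16h DMSO against E3.25 (-2.46 to -0.01), which did not pass after adjustment.

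The share of cells with Sall4 at 10 TPM or more was 100%, 66.7% and 90% in the 3 experiments of 16h DMSO and 63.6%, 21.4% and 33.3% in 16h LY. At 24 hours it was 83.3%, 72.7% and 81.8% with DMSO and 71.4%, 75% and 60% with LY. The arms did not overlap at 16 hours, which held for 4.43% of tested genes in that direction, and they overlapped at 24 hours. Over both times the share was lower with LY by 28.3 points on average (difference -28.3, at -46.1 for 16 hours and -10.5 for 24 hours; lower at 5 of 6 dates). An exact permutation of the arms within each time gave p = 0.01, where the smallest possible is 0.005, and p = 0.844 after adjustment over all genes. At that unadjusted p or less, 0.693% of tested genes were lower and 0.12% higher. Within runs 1 and 2 alone the difference was -38.1 and -30.2 points, and at a bar of 20 TPM it was -8.49 points.

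The SD of Sall4 over cells was higher with LY at every date, without passing over all genes. It was 0.05, 1.06 and 1.21 in the experiments of 16h DMSO and 1.15, 1.24 and 1.52 in 16h LY, where the value of 0.05 comes from an experiment of 3 cells. It was 1.84, 0.81 and 1.67 in 24h DMSO and 2.67, 2.08 and 2.31 in 24h LY, and these last 2 groups did not overlap, as for 9.36% of tested genes in that direction. The mean difference was 0.72 (0.53 at 16 hours and 0.91 at 24 hours; wider at 6 of 6 dates; 0.54 to 0.83 leaving out 1 experiment), with an exact permutation p = 0.01 and p = 0.557 after adjustment over all genes. It was 0.20 within run 1 and 1.10 within run 2. Of all tested genes 1.26% were wider at that unadjusted p or less, and 64.9% had a difference above 0.

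**Figure D5:**
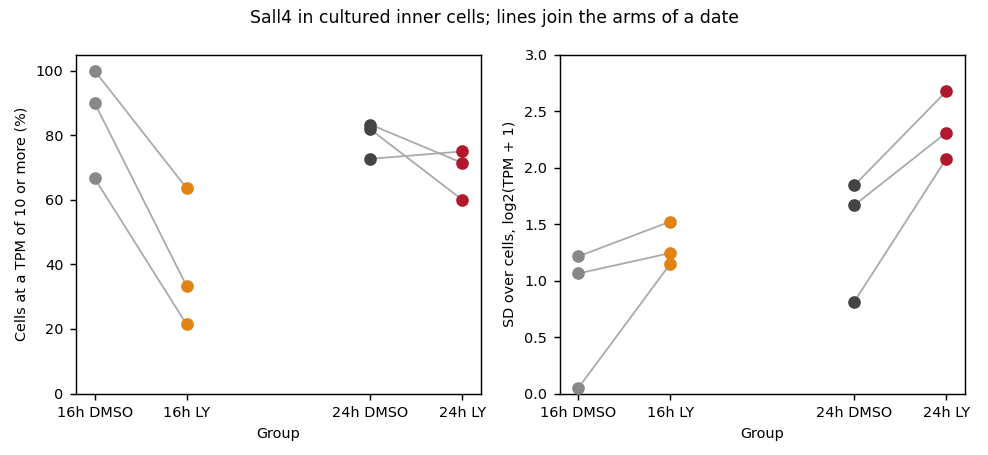
Sall4 in the cultured groups, as percent of cells at a TPM of 10 or more (left) and as SD over cells of log2(TPM + 1) (right), 1 point per experiment, with lines joining the DMSO and LY arms of a date. The share falls along all 3 lines at 16 hours, and the SD rises along all 6 lines.

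For Pou5f1 the SD over cells stood apart at 24 hours. It was 0.62, 0.80 and 0.80 in 24h DMSO and 1.68, 1.29 and 1.66 in 24h LY, without overlap, in the same direction as the 9.36% of tested genes above. At 16 hours it was 0.60, 1.60 and 0.51 with DMSO and 0.60, 1.07 and 0.89 with LY. Over both times the difference was 0.38 (exact permutation p = 0.15, p = 0.641 adjusted over all genes), at 0.18 within run 1 and 0.45 within run 2. In cells with 5000 genes or more it was 0.09, and the lowest cells of the 3 experiments of 24h LY, at 10.9, 13.5 and 35.6 TPM, held 4042, 4941 and 4750 genes. For Sox2 it was 0.39 (p = 0.25, adjusted p = 0.698 by the same permutation), and its share of cells differed by 2.26 points (p = 0.925).

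Fewer genes were found per cell with LY at both times, as given above, and the median summed levels of marker lists at 16 hours were lower too. The summed TPM of the 17 primitive endoderm markers had a median over cells of 128 (39.2 to 2272) in 16h DMSO and 66.6 (6.45 to 371) in 16h LY. For the 11 epiblast markers it was 185 (67.3 to 691.5) and 143 (11.6 to 574), and for the 14 trophectoderm markers 184 (8.52 to 1678) and 171 (27.1 to 854). With DMSO at 16 hours the trophectoderm factor Cdx2 was at 0 in 16 of 31 cells, and with LY in 28 of 31. In cells with 5000 genes or more the Sall4 share differed by -29.1 points, its SD by 0.72 and its level at 16 hours by -1.37, and that level differed by -1.12 with the number of genes as a covariate. The part of cell makeup in the Sall4 results was not tested.

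The SD over cells was higher at 24 than at 16 hours for most genes, Sall4 among them, and 0% of genes passed after adjustment. For Sall4 the difference was 0.86 on average (exact permutation p = 0.015, p = 0.119 adjusted over all genes), at 0.79 and 0.99 within runs 1 and 2 and 0.49 in cells with 5000 genes or more. The difference was above 0 in 74.4% of all tested genes, with a median of 0.32, and 9.29% were wider at an unadjusted p of 0.01 or less (2773 genes differed at an unadjusted p under 0.05). The SD of Sox2 differed by 0.50 (p = 0.15) and that of Pou5f1 by 0.26 (p = 0.3) in the same exact permutation. Taken by arm, the SD differed by 0.66 in DMSO and 1.05 in LY for Sall4, by 0.41 and 0.60 for Sox2, and by -0.16 and 0.69 for Pou5f1, whose arms thus went opposite ways. The share of cells at 10 TPM or more differed by -16.9 points for Sox2 (p = 0.34), 11.5 for Sall4 (p = 0.28) and 0.93 for Pou5f1 (p = 1.0), again by exact permutation, where 0% of genes passed and 998 had an unadjusted p under 0.05. The share of Sall4 differed by -6.26 points in DMSO and 29.3 in LY, and that of Sox2 by -25.1 and -8.67. In level, DMSO cells at 24 hours differed from those at 16 hours by 0.81 for Pou5f1 (95% interval -0.28 to 1.91, limma adjusted p = 0.611), by -0.57 for Sox2 (adjusted p = 0.853) and by -0.57 for Sall4 (adjusted p = 0.854), where 0.00856% of tested genes passed. Leaving out 1 experiment moved these to between 0.52 and 1.24 for Pou5f1, -1.30 and 0.25 for Sox2, and -0.96 and -0.32 for Sall4.

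Cultured control cells were also set beside fresh cells of near age. In 16h DMSO all 3 genes were lower than at E3.25, by differences of -1.23 for Pou5f1 (95% interval -2.46 to -0.01, unadjusted p = 0.0483, limma adjusted p = 0.362), -1.16 for Sox2 (adjusted p = 0.523) and -1.06 for Sall4 (adjusted p = 0.561). In that comparison 0.0514% of tested genes passed and the median over all genes was 0.32. For Pou5f1 the difference was -1.80 within run 1 and -0.77 within run 2. Leaving out 1 experiment gave -1.66 to -0.94 for Pou5f1, -1.99 to -0.43 for Sox2 and -2.32 to 0.20 for Sall4. Without experiment 2 of E3.25 these 3 differences were -0.95, -0.85 and 0.20. In 24h DMSO against E3.75 the differences were 0.23, -1.04 and -0.03 for Pou5f1, Sox2 and Sall4 (adjusted p = 1.0 for each), and 0% of genes passed, with 370 at an unadjusted p under 0.05. Fresh and cultured groups have no date in common, so the date and the culture cannot be told apart here.

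Going from E3.75 on to E4.0, Sox2 and Sall4 had higher means and Pou5f1 a lower one, by differences of 0.98 (95% interval -0.86 to 2.82), 1.44 (-0.41 to 3.29) and -0.57 (-1.91 to 0.77). No member passed by limma (adjusted p = 0.848, 0.690 and 0.891), against 1.41% of tested genes. Leaving out 1 experiment gave 0.59 to 1.38 for Sox2, 0.42 to 2.46 for Sall4 and -0.97 to -0.17 for Pou5f1. From E3.25 to E3.75 the differences were -0.69 for Sox2, -1.60 for Sall4 and -0.65 for Pou5f1 (adjusted p = 1.0 for each; 0% of genes passed, 536 at an unadjusted p under 0.05), and without E3.25 experiment 2 they were -0.38, -0.34 and -0.37.

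Other genes of the pluripotency network and of the lineages did pass the test at E4.0, where 1.67% of tested genes passed and 1.4% were higher, as given above. Of 14 naive pluripotency factors 1 passed from E3.25 to E4.0, Gbx2, which rose by 2.37 ± 0.35 (SE) on the log2 scale (limma adjusted p = 0.000376). Of 8 known targets of OCT4 and SOX2 1 passed, Lefty1, an inhibitor of Nodal signalling, which rose by 4.83 ± 0.70 (adjusted p = 0.000327). In the list of 11 epiblast markers 3 passed, Enox1, Morc1 and Ifitm1, which rose by 2.28, 1.66 and 1.95 (adjusted p = 0.00104, 0.00185 and 0.01). The primitive endoderm list had 7 of 17 past the threshold, among them Srgn (5.21), Foxa2 (3.09), Sox7 (2.03) and Amn (5.11), and a median of 2.48 against 0.20 for all genes.

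The relatives of the 3 genes and the NuRD complex gave no call. Of 21 other POU, SOX and SALL genes 8 were tested, and 0 passed in any of the 9 comparisons. The smallest p among them was for Sall1, which differed by 1.59 from E3.75 to E4.0 (limma adjusted p = 0.195). All 11 NuRD genes were tested and 0 passed, with Rbbp4, a histone-binding subunit, differing by 3.31 between 16h DMSO and E3.25 (adjusted p = 0.171). At an unadjusted p under 0.05, that comparison held 1599 of all tested genes.

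With LY at 16 hours, 8 of the 8 targets of OCT4 and SOX2 were below 0, with a median of -1.42 against -0.33 for all genes, and 0 passed. Fgf4, the growth factor gene whose enhancer binds both proteins, differed by -1.64 ± 0.70 (SE; limma adjusted p = 0.854), and Nanog by -1.70 ± 0.94 (adjusted p = 0.854). At 24 hours 6 of 8 were below 0, with a median of -0.87 against -0.20, and Tdgf1, a Nodal co-receptor, differed by -2.49 ± 0.91 (adjusted p = 0.899). Over the same comparisons the 10 tested trophectoderm markers were below 0 in 10 of 10 at 16 hours and 4 of 10 at 24 hours. The epiblast markers, which share Fgf4, Nanog and Tdgf1 with the targets, were below 0 in 11 of 11 and 10 of 11. It was 13 of 17 and 16 of 17 for the primitive endoderm markers, and 7 of 14 and 6 of 14 for the naive factors. By sign, a fall was thus not particular to the targets. In size the lists differed. At 16 hours the median was -0.31 for the epiblast markers, -0.61 for the primitive endoderm markers, -0.67 for the trophectoderm markers and -0.13 for the naive factors. At 24 hours these medians were -0.68, -0.36, 0.11 and 0.02. The targets thus had the lowest median of these lists at both times, and the lists were not tested against each other.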

How the data were processed

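RNA of single inner cells was amplified by a published single-cell protocol that primes at the 3′ end, made into Nextera XT libraries and sequenced in pairs on a NextSeq instrument, in 2 runs, per the labels' protocols. The authors deposited 1 table of TPM values. It was made with RSEM 1.3.3, STAR 2.7.9a, cutadapt 2.9 and bcl2fastq 2.20.0 on mm10, per the submitters' processing notes. Their settings and gene annotation are not given in the sources used here. The labels list 186 samples, of which 170 had a column and 16 were not analysed here. The 92 spike-in lines were left out. A pair of E3.25 columns whose titles differed by a suffix (r = 0.824 across genes, 0.783 at most with others) was averaged as 1 cell, and a like pair in 24h LY (0.594, 0.724) was kept apart.

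Experiment means of log2(TPM + 1) of all 7 groups entered 1 model in limma 3.58.1 (R 4.3.3; lmFit, eBayes with trend, 11 residual degrees of freedom), over the 11680 genes that reached 1 TPM in no less than 25% of the cells in some group. Benjamini-Hochberg adjustment ran over all of them and the threshold was 0.05. Shares and SDs over cells were compared by two-sided exact permutation over experiments (Python 3.11.15, scipy 1.17.1), run on every tested gene. The plan had adjusted over the 3 genes and 2 measures alone. By that plan the share and the SD of Sall4 with LY, at an exact permutation p = 0.01 each, would have been under the threshold. The adjustment over all genes was chosen after seeing the data, as were the SD between members and the comparisons of DMSO groups with fresh stages. A sign-flip test between members was planned and is not reported, since the members were picked for that pattern. The arms of a culture time share their date labels, so dates pair them; deviations of same-date arms correlated at 0.393, 0.121 and 0.317 at 16 hours and 0.231, 0.120 and 0.0732 at 24 hours. Members and gene lists were chosen with earlier results of these data known. Named genes were the members, up to 4 genes of a list past the threshold (otherwise the 2 with the smallest p), and the 5 most alike to each member over 169 cells. Gapdh, Pgk1 and Tbp, from a list of 10 genes used by all cells, were named after their values were seen.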

Additional observations from a re-analysis of the deposited data

How the results depend on the processing

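Levels were refitted 435 times over the 27 differences. None passed (adjusted p from 0.204 to 1.0), 387 kept their sign and 48 turned, mostly those of Sox2 near 0; the cause was not tested. Sox2 with LY at 16 hours turned to 0.16 with a pseudocount of 0.1, 0.083 with log2 of mean TPM, 0.0032 in cells with 5000 genes or more, 0.49 with quantile normalization and 0.51 with the number of genes as covariate. At 24 hours it turned to -0.20 with a pseudocount of 0.1 and -0.85 in run 1, and the difference between both effects to -0.36 and -0.63 under these settings, -0.078 with quantile normalization and -0.018 with the covariate. Sox2 from E3.25 to E4.0 turned to -0.23 with log2 of mean TPM, -0.13 in cells with 5000 genes or more, -0.024 with quantile normalization and -0.25 with the covariate, and from 16 to 24 hours in DMSO to 0.15 with the covariate. Sall4 with LY at 24 hours turned to -0.10 in cells with 5000 genes or more and -0.063 in run 1. Sall4 in 24h DMSO against E3.75 turned to 0.10, 0.41 and 0.32 with a pseudocount of 0.1, in cells with 5000 genes or more and in run 2.

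Leaving out 1 experiment turned these levels. For Sox2 the range was -0.78 to 0.78 with LY at 16 hours, -0.24 to 0.50 at 24 hours, -0.74 to 0.82 for the difference of effects, -0.10 to 0.69 from E3.25 to E4.0 and -1.30 to 0.25 from 16 to 24 hours. For Sall4 it was -0.16 to 0.54 with LY at 24 hours, -1.42 to 1.10 from E3.25 to E4.0, -2.32 to 0.20 from E3.25 to 16h DMSO and -1.05 to 0.98 from E3.75 to 24h DMSO, where it was -0.080 to 0.54 for Pou5f1.

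Shares and SDs over cells passed in none of 204 repeats (adjusted p from 0.102 to 1.0), and 15 turned sign. With LY the share of Sox2 turned to -4.84 points at 1 TPM and -1.16 in run 2 (-7.19 to 15.3 leaving out 1 experiment), and that of Pou5f1 to -1.92 at 20 TPM. From 16 to 24 hours the share of Sall4 turned to -6.11 at 1 TPM and -12.1 at 20 TPM, that of Pou5f1 to -1.92 and of Sox2 to 0.85 at 20 TPM, and the SD of Pou5f1 to -0.15 in cells with 5000 genes or more and -0.015 in run 1.

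Between members, the share of Pou5f1 above Sall4 was 2.64 points at 1 TPM. On the 6 fresh dates alone the shares differed by 43.97 (Pou5f1 and Sox2), 13.9 (Pou5f1 and Sall4) and 30.1 points (Sall4 and Sox2), the last being 31.9 on the 6 culture dates. The SD of Pou5f1 against Sox2 was -0.74 on fresh and -0.72 on culture dates, and against Sall4 -0.75 and -0.46. Sall4 against Sox2 was 0.011 on fresh dates, -0.61 with a pseudocount of 0.1, and -0.21 to -0.088 leaving out 1 date.

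With the date as a replicate block the share of Sall4 with LY kept its difference of -28.3 points (exact permutation p = 0.0625, 0.705 adjusted over all genes) and its level at 16 hours that of -1.404 (limma adjusted p = 0.385); the block changed no call. TPM without counts gives no interval for a level in 1 cell, and 3 to 18 cells an experiment limit each share.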
